A study of Mus musculus with 155 samples.

Results

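Single brain cells that carried a neuroblast reporter and an oligodendrocyte lineage reporter together (population OligNBL, 40 cells) were set against cells that carried the oligodendrocyte lineage reporter alone (population OL, 22 cells). They are 62 of the 155 cells of the series and were chosen by the population name in the labels, with no measured value used. The comparison asks how cells that hold both reporters differ from oligodendroglia of demyelinated brain.

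Both populations were sorted from the subventricular zone, a stem cell niche that lines the forebrain ventricle, and from the corpus callosum, a large white matter tract, of mice 8 to 10 weeks old. Live cells were sorted singly by fluorescence into plates, with autofluorescent cells left out. Per the labels, the mice were killed 6 days after an injection of LPC (lysophosphatidylcholine), a lipid that strips myelin. OligNBL cells came from a cross of CB6-Tg(Gad1-EGFP)G42Zjh/J with Olig2-tdTomato TH39Gsat/Mmcd and were gated as Gad67-GFP and Olig2-Tomato double positive, whereas OL cells came from Olig2-tdTomato TH39Gsat/Mmcd alone and were gated as Tomato positive. Strain therefore differed with the gate, and the effects of strain and gate cannot be told apart. Levels in the other populations are set beside those of the members: NBL (27 GFP cells of lesioned mice), NB (37 GFP cells) and O (29 Tomato cells), the last of which, like NB, came from healthy mice that had no injection. Mice of these populations were also 8 to 10 weeks old, and those of NBL were taken 6 days after injection. Each condition had 5 mice by the labels, which do not tie cells to mice, so a population counts as 1 sample. No test between populations could be made, and all differences below are descriptions of these cells. Labels also disagree with each other: the characteristics of all 40 OligNBL cells say lesion, but the titles, and a deposited file that describes the cells, mark 40 of 40 as control, while 22 of 22 OL cells are marked as lesion in both. If the titles are right, lesion state differs with the gate too.

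As background, neuroblasts are migrating immature neurons that are born in the adult subventricular zone and become mostly GABA-producing interneurons of the olfactory bulb. They hold a growing microtubule cytoskeleton and transcription factors of interneuron fate. Oligodendrocyte progenitors, which express the receptor Pdgfra and the proteoglycan Cspg4 (NG2), are recruited to demyelinated white matter and mature into oligodendrocytes, which wrap axons in myelin made of lipids and a small set of abundant proteins such as Mbp.

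A level below is the mean over cells of log2(signal + 1), given with the SD between cells, and a difference is the level in OligNBL minus the level in OL on that log2 scale. The deposited values were nearly alike in distribution in every cell, as after quantile normalization, with column totals that spread by 0.101%, and they carry no record of sequencing depth. A gene is called present in a cell when it is among its 500 highest genes. OligNBL cells had 720 to 1910 genes detected (median 1397) and OL cells 767 to 1335 (median 950.5), and counts restricted to cells with at least 1000 genes detected are given below. Cells with neighbouring cell numbers resembled each other. Each population was therefore divided by cell number alone into runs of 4 to 8 cells, 6 runs for OligNBL and 3 for OL. Mean correlation between cells of the same run was 0.374 to 0.638, against 0.209 to 0.331 with other runs of the same population and 0.0496 to 0.143 with the other population. Runs are not replicates. A gene whose run means in 1 population all lay above all run means of the other is said to have its runs apart.

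The reporters were examined first, as a check on the gate and not as a finding. EGFP transcript had a level of 3.48 ± 3.30 (SD, n = 40) in OligNBL and 0.36 ± 1.17 (SD, n = 22) in OL, and was present in 12 of 40 and 2 of 22 cells. Gad1, the gene of Gad67, an enzyme that makes GABA, which drives the GFP reporter, had levels of 5.53 ± 4.56 and 0.42 ± 1.17 and was present in 22 of 40 and 2 of 22 cells. TdTomato transcript was low in both, at 0.31 ± 1.24 and 0.31 ± 0.81, with presence in 1 of 40 and 0 of 22 cells. Olig2 was not analysed here.

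To show the regulatory sequence in front of genes that lay at opposite ends of the comparison, the 250 bases before the RefSeq start site are given for 3 leading genes: Tubb3 and Tubb4a, a pair of beta tubulin genes with opposite differences, and Cldn11, a myelin gene. The windows come from RefSeq on GRCm38.p6 and are printed 5′ to 3′ on the gene's own strand. They are chr8:123411303-123411552 (plus strand) for Tubb3, chr17:57087601-57087850 (minus strand) for Tubb4a and chr3:31149670-31149919 (plus strand) for Cldn11. The GENCODE gene coordinates used elsewhere start further upstream for both tubulins, so that the end of the Tubb3 window, with its marked letters, and most of the Tubb4a window lie inside the GENCODE gene. Capitals mark TTGGC on either strand, the half-site of the nuclear factor I (NFI) family to which Nfib and Nfix belong.
Tubb3: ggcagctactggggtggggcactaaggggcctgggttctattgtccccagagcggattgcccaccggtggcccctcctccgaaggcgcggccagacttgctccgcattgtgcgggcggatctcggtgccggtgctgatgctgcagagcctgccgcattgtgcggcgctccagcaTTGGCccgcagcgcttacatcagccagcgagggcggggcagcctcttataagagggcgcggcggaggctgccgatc
Tubb4a: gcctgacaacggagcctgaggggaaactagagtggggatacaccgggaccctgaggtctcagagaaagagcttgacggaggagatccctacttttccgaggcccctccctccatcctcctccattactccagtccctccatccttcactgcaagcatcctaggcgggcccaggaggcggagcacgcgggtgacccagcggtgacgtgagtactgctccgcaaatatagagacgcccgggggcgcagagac
Cldn11: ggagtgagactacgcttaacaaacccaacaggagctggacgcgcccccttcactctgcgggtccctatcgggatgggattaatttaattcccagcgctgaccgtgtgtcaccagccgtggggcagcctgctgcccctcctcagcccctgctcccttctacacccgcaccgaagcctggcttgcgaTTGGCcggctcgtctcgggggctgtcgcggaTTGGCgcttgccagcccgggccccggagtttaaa

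The Tubb3 window held 1 such half-site, the Cldn11 window 2 and the Tubb4a window 0. Each of the 3 matches also spells CCAAT on the other strand, so the letters fit more than 1 family of factors. The half-site occurred in 41.95% of 27025 promoter windows outside chromosome 18, in 4 of the 12 windows found for the 15 leading genes higher in OligNBL and in 7 of the 10 found for the 15 leading genes lower in OligNBL. CAGCTG, an E-box that Tcf4 can bind, and ACAAAG, a core read by Sox factors, were also searched on both strands. They were found in 12.8% and 16.6% of all windows and in 10.3% and 12.5% of those of genes in the table. Neither was in any of the 3 windows printed. A match is a description of the letters and says nothing on binding. Windows of Trf and Nfib were not used here.

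Of the 3422 genes in the table, 450 (13.2%) had a level at least 2 higher in OligNBL and 418 (12.2%) a level at least 2 lower. Runs lay apart for 365 genes (10.7%) that were higher and 257 (7.51%) that were lower in OligNBL. Runs lay apart for 58% of the genes at least 2 higher and 48.1% of those at least 2 lower. The median difference over all genes was 0.13. Whichever single run was left out, 57.3% of the genes at least 2 higher and 42.1% of those at least 2 lower stayed past 2. Without OL run 1 the 7.51% was 13.8%, with fewer runs that must lie apart. A pseudocount of 10 in place of 1 gave 4.88% of genes at least 2 higher and 5.52% at least 2 lower. Kept to cells with at least 1000 genes detected, which leaves 38 OligNBL and 9 OL cells, 13.9% of genes were at least 2 higher and 13.5% at least 2 lower. These shares are the background against which the counts of each gene group are read.

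Of the 4 marker genes, Tubb3 and Nfib had higher levels in OligNBL, and Mbp and Trf in OL. Tubb3 (chromosome 8, 123411424 to 123422015, plus strand, GRCm38), the beta tubulin of neurons, ran from 0.00 through a median of 9.91 to 16.42 in OligNBL cells and from 0.00 through 0.00 to 9.82 in OL cells. Its level was 8.81 ± 4.07 (SD, n = 40) against 1.49 ± 2.57 (SD, n = 22), a difference of 7.32, and it was present in 38 of 40 cells (95%, exact 95% interval 83.1% to 99.4%) against 4 of 22 (18.2%, 5.19% to 40.3%). Single cells of the populations overlapped, but the lowest OligNBL run mean, 6.42, was above the highest OL run mean, 2.90. NBL stood between them at 5.57, and NB and O were at 1.56 and 1.5. A gene model on the same strand, Gm20388, shares 10592 bases with Tubb3 and had levels of 0.15 in OligNBL and 0.08 in OL, so few reads were assigned to it in either. Intervals cover counting error only, and since cells of a run are alike they are too narrow.

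Nfib (chromosome 4, 82290173 to 82705750, minus strand), a transcription factor of the NFI family, ran from 4.11 through 9.91 to 18.14 in OligNBL cells and from 0.00 through 0.69 to 13.90 in OL cells. The level was 9.97 ± 3.76 against 1.99 ± 3.18, a difference of 7.97, with presence in 40 of 40 and 4 of 22 cells. The lowest OligNBL cell was far above the median OL cell, and all runs lay apart. NBL was as high, at 10.31, whereas NB (1.74) and O (1.92) were near OL. Other members of the family did not all follow. Nfix had levels of 7.82 ± 4.63 and 1.49 ± 2.84, with runs that overlapped because OligNBL run 1 was at 2.61. Nfic had levels of 2.02 and 0.16, with a difference of 1.87. Nfia was alike in both, at 5.37 ± 2.61 and 5.27 ± 1.89.

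Mbp (chromosome 18, 82475146 to 82585637, plus strand), which encodes the protein that compacts the myelin sheath, ran from 0.00 through 0.00 to 1.11 in OligNBL cells and from 4.51 through 13.82 to 20.19 in OL cells. No OligNBL cell reached the lowest OL cell. The levels were 0.04 ± 0.19 and 12.47 ± 4.79, a difference of -12.44, and the gene was present in 0 of 40 (upper bound 8.81%) and 22 of 22 cells. O cells of healthy mice had a level of 3.00, and NBL (0.13) and NB (0.06) were near 0.

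Trf (chromosome 9, 103204001 to 103230444, minus strand), the iron carrier transferrin that oligodendrocytes make in brain, ran from 0.00 through 0.00 to 3.92 in OligNBL cells and from 5.32 through 14.09 to 20.19 in OL cells. The ranges did not overlap here either. Its levels were 0.39 ± 0.96 and 14.72 ± 4.58, a difference of -14.33, with presence in 1 of 40 and 22 of 22 cells, and O was as high as OL, at 15.19. A gene model on the same strand, Gm20425, shares 26307 bases with Trf and also had a lower level in OligNBL (1.53 ± 2.68) than in OL (7.12 ± 4.87), so the division of reads between them is uncertain. The plot of these 4 genes by cell shows all 5 populations.

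**Figure D1:**
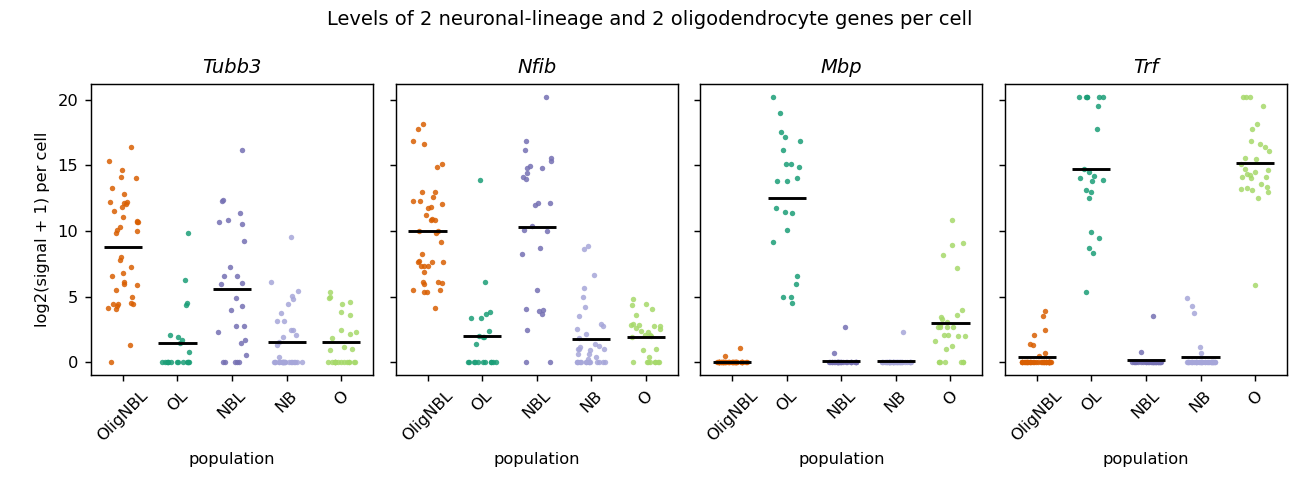
Levels of Tubb3, Nfib, Mbp and Trf as log2(signal + 1) in each of the 155 cells, by population; each point is 1 cell and each black line the mean of the population. Mbp and Trf do not overlap between OligNBL and OL, while Tubb3 and Nfib overlap.

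Most measured myelin genes were near 0 in OligNBL. Of 26 listed genes of compact and non-compact myelin, 17 were measured. Of these 13 (76.5%) were at least 2 lower in OligNBL and 0 at least 2 higher, with runs apart and lower for 11, and the median difference was -4.59. Cnp, an enzyme of non-compact myelin, ran from 0.00 through 0.00 to 4.38 in OligNBL cells and from 3.33 through 10.10 to 19.50 in OL cells, with levels of 0.55 ± 1.15 and 10.37 ± 4.31. Cldn11, which seals the myelin layers and whose upstream sequence is printed above, had levels of 0.06 ± 0.35 and 8.22 ± 4.14 and was present in 0 of 40 and 19 of 22 cells. Both were high in O as well, at 12.52 and 7.09.

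Adhesion and surface proteins of myelin followed the same order. Mag, a glycoprotein of the membrane facing the axon, had levels of 0.00 ± 0.02 and 7.38 ± 5.51, and Mog, a protein of the outer myelin surface, was at its lowest value in all 40 OligNBL cells and at 5.98 ± 4.36 in OL. Mal and Opalin were likewise at 0.00 in every OligNBL cell, with OL levels of 6.84 ± 6.22 and 6.08 ± 5.69. Cd81, a tetraspanin that many cell types express, counted among the lower genes with a difference of -2.11, but it was present in 40 of 40 and 22 of 22 cells, and its levels of 9.95 ± 4.48 and 12.06 ± 3.86 overlapped between cells and runs. Cntn2, Nfasc, Pllp and Tspan15 were low in both populations, with differences of 0.14, -1.09, -0.85 and -1.23.

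Genes that support mature oligodendrocytes were lower in OligNBL in the same way. Of 26 measured support genes 18 (69.2%) were at least 2 lower and 1 at least 2 higher, with a median difference of -3.98, which was -2.36 without OL run 1. Ptgds, a prostaglandin synthase, had levels of 0.04 ± 0.25 and 9.16 ± 4.87. Cryab, a small heat shock protein, had levels of 0.01 ± 0.04 and 8.65 ± 4.55, and Sept4, a septin, 0.09 ± 0.31 and 7.80 ± 4.67. These 3 genes were present in 0 of 40 OligNBL cells and in 19, 18 and 18 of 22 OL cells, and all 3 were high in O, at 10.52, 7.75 and 8.06. Other members included Enpp2 (0.03 and 5.95), Gsn (0.24 and 6.72), Apod (0.23 and 6.14) and Fez1 (1.22 and 8.25), with the OligNBL level given first. The member at least 2 higher in OligNBL was Stmn4, a microtubule regulator also found in neurons, at 6.81 ± 3.60 and 4.40 ± 3.89. Dock10 was at the top of every cell, at 17.56 and 16.89, and did not separate the populations.

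Iron storage genes were split. Fth1, the ferritin heavy chain, ran from 0.00 through 0.00 to 2.54 in OligNBL cells and from 1.24 through 7.15 to 15.35 in OL cells, with levels of 0.20 ± 0.55 and 7.63 ± 4.32. Ftl1, the light chain, was alike in both at 7.89 ± 3.47 and 7.11 ± 3.76. The low Fth1 of OligNBL was not shared by NBL, at 6.23, although NB was low at 1.23. Ferritin genes have many near-identical copies in the genome, so the assignment of their reads is uncertain.

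**Figure D2:**
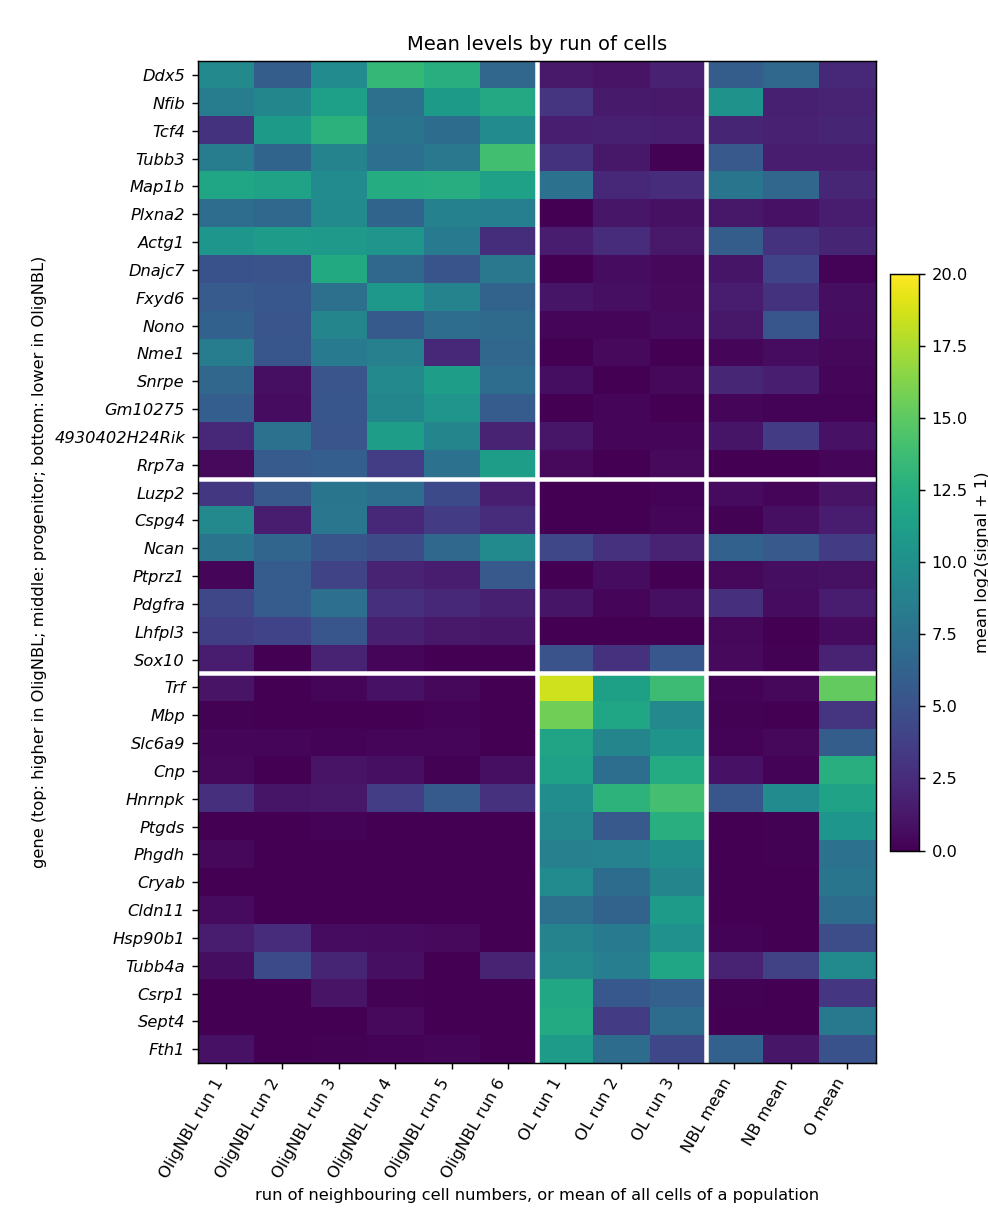
Mean level, log2(signal + 1) on the colour scale, of the leading genes higher in OligNBL (top), selected progenitor genes (middle) and leading genes lower in OligNBL (bottom) in each of the 6 OligNBL runs and 3 OL runs, with the means over NBL, NB and O cells. Of 16 measured progenitor genes, the middle block shows the 6 at least 2 higher in OligNBL and the 1 at least 2 lower. The 9 that did not differ by 2 are not drawn. The top and bottom blocks differ between OligNBL and OL runs, though some genes of the top block are low in 1 OligNBL run, and the O mean is high for most genes of the bottom block.

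Transcription factors of neuroblasts were higher in OligNBL in part. Of 20 listed genes measured, 8 (40%) were at least 2 higher and 0 at least 2 lower, with a median difference of 1.36. Besides Nfib and Nfix these included Tcf4, an E protein that pairs with proneural factors, which ran from 0.00 through 9.19 to 20.19 in OligNBL cells and from 0.00 through 1.31 to 10.05 in OL cells. Its levels were 9.01 ± 5.03 and 1.69 ± 2.31, and NBL (2.10), NB (1.86) and O (2.05) were all near OL. Sox11, which acts in immature neurons, had levels of 5.99 ± 4.11 and 1.04 ± 1.65 and was present in 28 of 40 and 1 of 22 cells. Meis2, Dlx6 and Sp9, factors of forebrain interneuron lineages, had differences of 3.08, 3.27 and 2.15, and Rnd3, a GTPase kept in this list for its role in migration, one of 3.33.

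Several of the best known factors of that lineage did not differ by 2. Dlx1 had levels of 2.19 ± 3.06 and 2.76 ± 3.21, Dlx2 1.61 and 0.39, and Sp8 0.60 and 1.24. Etv1 was at 0.48 in both, against 6.79 in NBL. Sp8 had its highest level in NB, at 7.63.

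Many cytoskeletal genes of migrating neuroblasts had higher levels in OligNBL. Of 32 measured members of the neuroblast cytoskeleton and surface list 17 (53.1%) were at least 2 higher in OligNBL and 2 at least 2 lower, with a median difference of 2.11. Gad1, on whose reporter the cells were gated, is 1 of the 17. Map1b, a microtubule-associated protein of growing neurites, ran from 5.92 through 11.16 to 20.19 in OligNBL cells and from 0.00 through 3.40 to 16.42 in OL cells, with levels of 11.52 ± 3.54 and 4.23 ± 3.62. It was present in 40 of 40 and 11 of 22 cells, and 8 of those 11 OL cells were the 8 cells of OL run 1. Fxyd6, a regulator of the sodium pump, had levels of 7.50 ± 3.78 and 0.82 ± 1.53 with presence in 37 of 40 and 1 of 22 cells. Marcksl1, an actin-binding protein of growth cones, was at 5.22 and 0.38, Dpysl5, of the CRMP family of axon growth proteins, at 4.38 and 0.14, and Ncam1, a neural adhesion molecule, at 7.96 and 4.59.

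Widely used neuroblast markers of this list did not all differ alike. Cd24a (3.65 ± 4.33 and 0.15 ± 0.50) and Nrep (4.14 ± 3.91 and 0.72 ± 1.81) were, like Tubb3, at least 2 higher in OligNBL with runs apart, whereas Dcx and Stmn2 did not differ by 2. Dcx, the microtubule protein doublecortin, ran from 0.00 through 1.38 to 15.35 in OligNBL cells and from 0.00 through 0.00 to 6.88 in OL cells. Its levels of 3.61 ± 4.66 and 1.73 ± 2.11 differed by 1.87, and it was present in 13 of 40 and 5 of 22 cells, with NBL at 5.14 and NB at 5.46. All 5 OL cells lay in OL run 1. Stmn2 was at 0.50 in both populations and at 5.17 in NB. The members at least 2 lower in OligNBL were Dpysl2 (6.12 ± 2.57 and 9.87 ± 3.90), present in nearly every cell of both, and Stmn1 (1.18 ± 1.77 and 5.37 ± 5.97), which was high in OL runs 2 and 3 and near 0 in OL run 1.

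Tubulin genes divided by isotype. Microtubules are built of alpha and beta tubulins, each encoded by several genes that are used in different cell types. Tubb4a (chromosome 17, 57080066 to 57087782, minus strand), the beta tubulin of myelinating oligodendrocytes and mature neurons, ran from 0.00 through 1.24 to 12.38 in OligNBL cells and from 0.00 through 9.02 to 18.99 in OL cells. Its levels were 1.81 ± 2.61 and 9.89 ± 4.34, a difference of -8.08 against the 7.32 of Tubb3, and it was present in 5 of 40 and 21 of 22 cells. O was as high as OL, at 9.56.

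Other beta tubulins went with Tubb3. Tubb2b, an isotype of migrating neurons, had levels of 6.04 ± 4.63 and 0.60 ± 1.07, Tubb2a 3.90 ± 3.73 and 0.39 ± 1.03, and Tubb5 9.61 ± 4.69 and 6.12 ± 4.12, the last with runs that overlapped. The alpha tubulins differed less, with levels of 10.64 and 8.58 for Tuba1a, 6.16 and 5.28 for Tuba1b and 2.61 and 2.94 for Tuba1c. Tubb2a and Tubb2b, and the Tuba1 genes among themselves, are close copies between which reads can be misassigned. Over the wider list of tubulins, actins, microtubule proteins and motors, 18 of 35 (51.4%) were at least 2 higher and 2 at least 2 lower, with a median difference of 2.06. Actg1, a cytoplasmic actin with many processed copies, had levels of 8.86 ± 4.60 and 1.85 ± 1.94, but OligNBL run 6 was at 2.62, next to the highest OL run mean of 2.56.

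**Figure D3:**
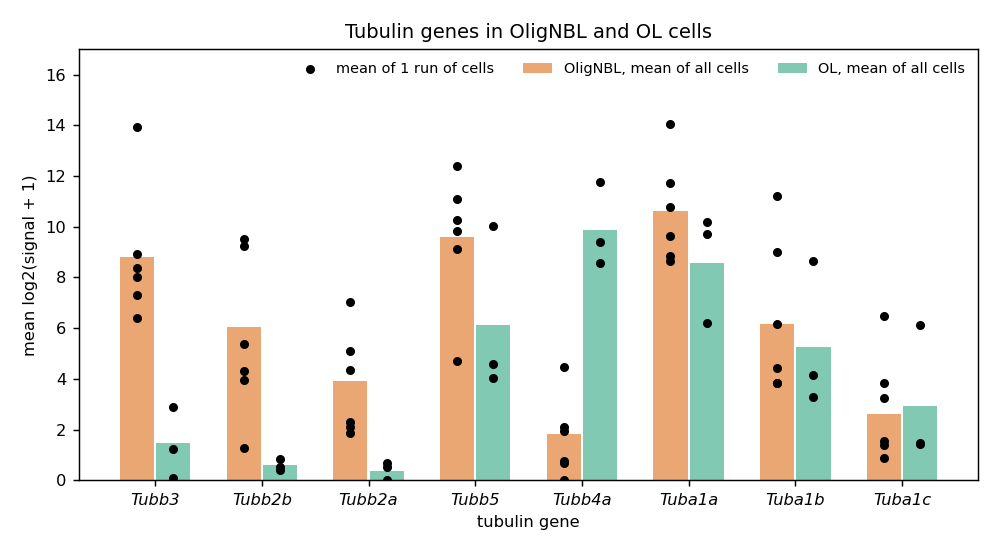
Mean level, log2(signal + 1), of 8 tubulin genes over OligNBL and OL cells (bars from 0) with the mean of each run of cells as a black point. Tubb4a is the isotype whose bar is higher in OL by over 2, and Tubb3, Tubb2b and Tubb2a have all OligNBL runs above all OL runs.

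Of 23 measured genes of guidance ligands, guidance receptors and cell adhesion, 8 (34.8%) were at least 2 higher in OligNBL and 1 at least 2 lower. The median difference was 0.97, and 0.60 without OligNBL run 4. Plxna2, a receptor for semaphorins, ran from 1.54 through 6.59 to 18.99 in OligNBL cells and from 0.00 through 0.00 to 5.48 in OL cells. The levels were 7.90 ± 3.88 and 0.66 ± 1.6, presence was 38 of 40 and 2 of 22 cells, and NBL (1.26), NB (1.01) and O (1.54) were all low. Eva1c, a receptor for the guidance cue Slit, had levels of 5.85 ± 2.90 and 1.00 ± 1.28, and Slit1 itself 4.73 ± 5.09 and 0.11 ± 0.54. Nrcam, an adhesion molecule of axons, had levels of 5.56 ± 5.01 and 0.07 ± 0.31. Sema4d, a semaphorin made by oligodendrocytes, was the member lower in OligNBL, at 0.42 and 2.83.

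Some oligodendrocyte progenitor genes had higher levels in OligNBL than in OL, and most did not differ by 2. Of 16 measured progenitor genes 6 (37.5%) were at least 2 higher and 1 at least 2 lower, with a median difference of 0.93. Pdgfra (chromosome 5, 75152292 to 75198215, plus strand), the receptor that drives progenitor division, ran from 0.00 through 1.74 to 18.99 in OligNBL cells and from 0.00 through 0.00 to 4.38 in OL cells. Its levels were 4.05 ± 4.48 and 0.77 ± 1.35, and it was present in 17 of 40 and 1 of 22 cells. Cspg4 (chromosome 9, 56865033 to 56899870, plus strand) had levels of 4.08 ± 5.44 and 0.10 ± 0.46 with presence in 12 of 40 and 0 of 22 cells. Ptprz1 (chromosome 6, 22875502 to 23052916, plus strand), a phosphatase of progenitor membranes, had levels of 3.52 ± 3.92 and 0.22 ± 0.77 with presence in 18 of 40 and 0 of 22 cells.

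The other members at least 2 higher were Luzp2 (5.14 ± 4.32 and 0.06 ± 0.27), Ncan, a matrix proteoglycan that neurons make too (6.62 ± 3.68 and 3.05 ± 1.56), and Lhfpl3 (2.88 ± 3.48 and 0.00 in every OL cell). In the remaining populations Luzp2, Lhfpl3, Cspg4 and Ptprz1 had levels of at most 1.62, and Pdgfra was at 2.75 in NBL. Ncan was at 6.23 in NBL and 5.58 in NB, near its level in OligNBL. Sox10, which oligodendroglia need at every stage, went the other way, at 0.58 ± 1.76 and 4.47 ± 5.25 with presence in 2 of 40 and 8 of 22 cells, and its runs lay apart. Olig1 was low in both, at 0.90 and 1.09, and Cspg5 and Megf11 had differences of -0.18 and -0.92. Cspg4 is also a gene of mural cells, the contractile cells of vessels.

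Progenitor and neuroblast genes were present in the same OligNBL cells. At least 1 of Pdgfra, Cspg4 and Ptprz1 was present together with at least 1 of Dcx, Tubb3 and Gad1 in 30 of 40 OligNBL cells (75%, 58.8% to 87.3%) and in 0 of 22 OL cells (upper bound 15.4%). The same held in 8 of 27 NBL, 5 of 35 NB and 6 of 29 O cells, where 2 NB cells with fewer than 500 genes detected are left out. Taken alone, at least 1 of the 3 progenitor genes was present in 30 of 40 OligNBL and 1 of 22 OL cells. It was so in 8 of 27 NBL, 6 of 35 NB and 11 of 29 O cells. With 500 of 3422 genes present in a cell, any 3 genes would give some such cells. At least 1 of the 3 neuroblast genes was present in 39 of 40 and 8 of 22 cells. The joint count in OligNBL therefore equals the count for progenitor genes alone. In OligNBL 15 cells had at least 2 of the 3 progenitor genes and 2 cells had all 3. A further 9 cells had a neuroblast gene and none of the progenitor genes. The joint measure was chosen after the data were seen. Its 3 progenitor genes are among the 6 that were at least 2 higher in OligNBL. Sox10, lower in OligNBL, and Olig1, low in both, are not part of it. The measure also depends on the definition of presence: with the 300 highest genes the OligNBL share was 37.5%. With any value above the lowest of a cell it was 97.5%, against 27.3% in OL. Gad1 was behind the gate, cells were sorted singly, and doublets were not called, so their part in these counts was not tested. OligNBL cells had more genes detected (median 1397) than NBL (1161) or OL (950.5).

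In counts of myelin, support and neuroblast genes, OligNBL cells stood with GFP cells and OL cells with healthy Tomato cells. Of 43 measured myelin and support genes, 3 to 9 (median 5) were present in an OligNBL cell and 12 to 32 (median 26) in an OL cell, so the populations did not overlap. NBL cells had 3 to 10, NB 3 to 7 and O 15 to 28. Of 52 measured neuroblast genes, 16 to 26 (median 21) were present in an OligNBL cell and 4 to 15 (median 7.5) in an OL cell, with no overlap though the ends of the ranges were neighbours, and NBL had a median of 21, NB 15 and O 7. Counts of the progenitor list of 16 genes were 1 to 8 (median 3) in OligNBL and 0 to 4 (median 1) in OL cells, which overlapped. The median was 2 in NBL and 1 in NB and O. A cell has 500 of 3422 genes present, so any list of 43, 52 or 16 genes would have some present. Low counts such as 5 of 43 or 3 of 16 are therefore not a sign of a programme. The planned count of cells with at least 3 oligodendrocyte and 3 neuroblast genes was met by every cell of every population and so separated nothing.

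**Figure D4:**
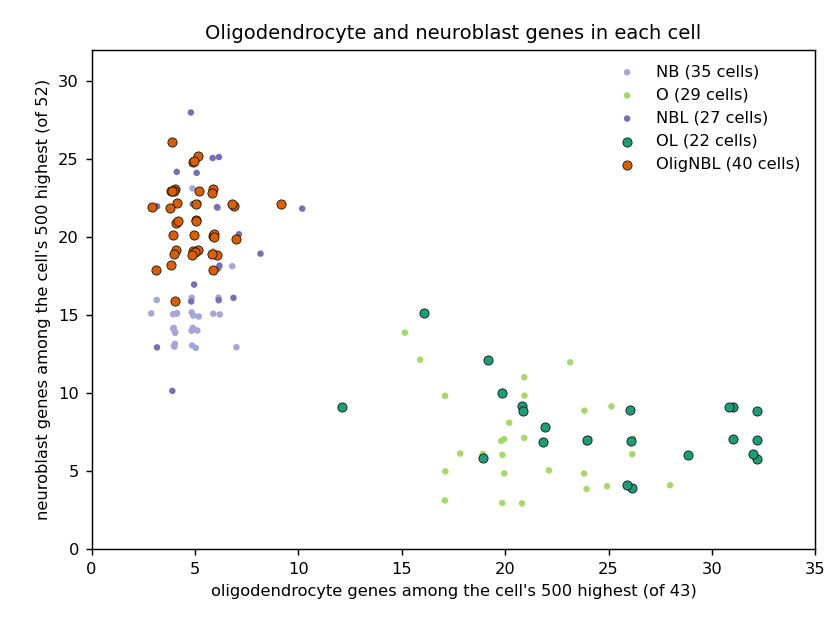
Number of measured oligodendrocyte genes (x axis, of 43) and neuroblast genes (y axis, of 52) among the 500 highest genes of each cell, with points moved slightly so that they do not hide each other. OligNBL cells lie with NBL and NB cells at 3 to 10 oligodendrocyte genes, and OL cells lie with O cells at 12 to 32.

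Correlation with the mean profile of each population gave a similar order. Over the 3422 genes, which are not independent, an OligNBL cell had a median r of 0.547 with the mean of the other OligNBL cells, 0.202 with NBL, 0.197 with NB, 0.166 with O and 0.165 with OL. Among the other populations, 28 of 40 OligNBL cells were most like NBL, 9 most like NB, 2 most like O and 1 most like OL. An OL cell had a median r of 0.578 with its own population and 0.355 with O, and 21 of 22 were most like O. Its median r was 0.176 with OligNBL, 0.151 with NBL and 0.148 with NB, so OligNBL came next after O. The own profile holds the other cells of a cell's run, and the other profiles do not.

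**Figure D5:**
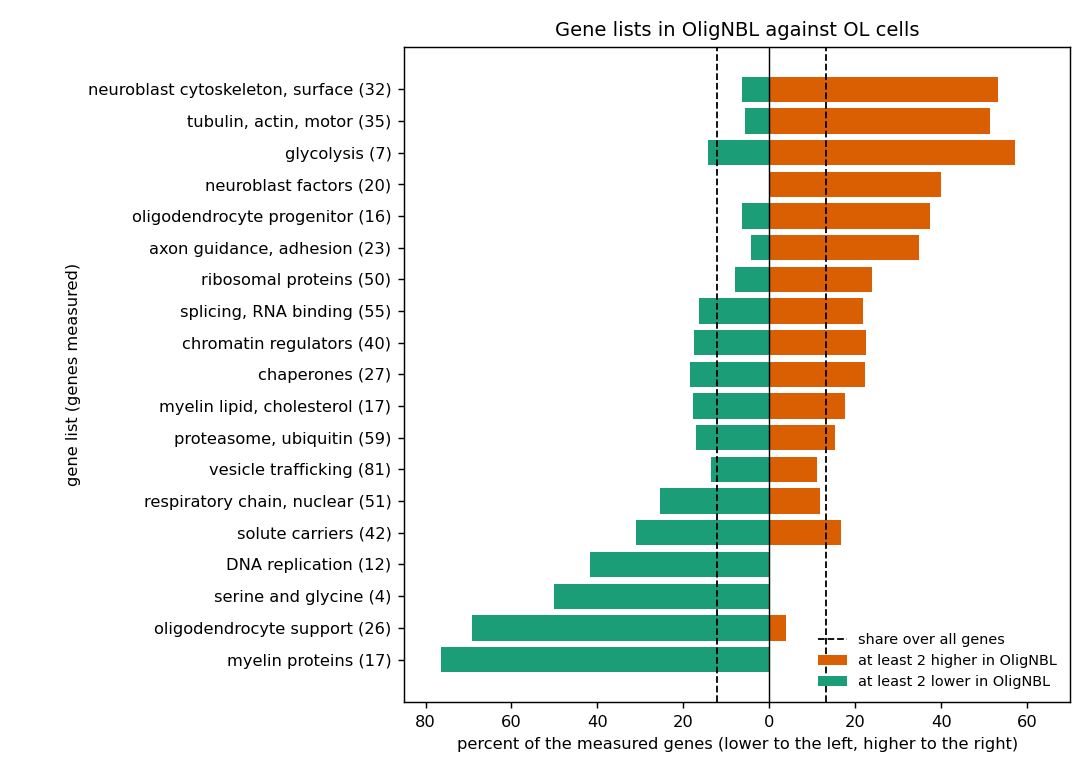
Percent of the measured genes of each list whose level was at least 2 higher (right) or at least 2 lower (left) in OligNBL than in OL, with the number measured in brackets; dashed lines mark the shares over all 3422 genes, 13.2% and 12.2%. Myelin, support, serine and replication lists extend to the left, and the neuroblast, cytoskeleton and glycolysis lists to the right.

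Metabolic genes differed by pathway. Phgdh, the first enzyme of serine synthesis, ran from 0.00 through 0.00 to 1.58 in OligNBL cells and from 2.59 through 8.29 to 17.75 in OL cells, with levels of 0.04 ± 0.25 and 9.16 ± 3.75. Slc6a9, the glycine transporter GlyT1, ran from 0.00 through 0.00 to 1.88 and from 2.32 through 11.14 to 19.50, with levels of 0.24 ± 0.50 and 10.42 ± 5.04. Neither gene overlapped between the populations, and both were lower in NBL and NB (0.00 to 0.43) than in O (7.46 and 5.89). These were 2 of only 4 measured genes of the list, and the others, Slc38a2 and Mthfd2, differed by 0.13 and 0.00, the last being at 0.00 in every cell of both. Slc6a9 overlaps Ccdc24 on the opposite strand over 6034 bases, and Ccdc24 was lower in OligNBL too, at 0.04 and 4.48.

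Glycolytic enzymes were mostly higher in OligNBL: 4 of 7 by at least 2, and 1 lower, with a median difference of 2.21. Hk1, the hexokinase of brain, had levels of 4.14 ± 4.23 and 0.13 ± 0.63, Eno1 4.50 ± 4.19 and 0.15 ± 0.53, Pkm 4.06 ± 3.81 and 0.07 ± 0.35, and Pfkp 2.21 ± 2.5 and 0.00. Aldoa was lower, at 0.12 ± 0.47 and 4.48 ± 4.65, and all 8 cells of OL run 1 held it. Gapdh and Ldhb differed by -1.07 and -0.08. Eno1 was not even among OligNBL runs, with means from 0.22 in run 6 to 8.47 in run 4.

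Lipid genes did not lean either way. Of 17 measured genes of myelin lipid and cholesterol metabolism 3 (17.6%) were at least 2 higher and 3 at least 2 lower, near the shares over all genes, with a median difference of 0.17. Abca2, a lipid transporter of oligodendrocytes (0.38 and 5.01), and Scd2, a desaturase (0.06 and 3.67), were lower in OligNBL, and Acly, which makes acetyl-CoA for lipid synthesis (4.04 and 0.43), and Npc1, which moves cholesterol out of lysosomes (4.18 and 0.81), were higher. Solute carriers leaned lower, with 13 of 42 at least 2 lower and 7 (16.7%) at least 2 higher. Among them Slc48a1, a heme transporter, and Slc22a5, a carnitine transporter, had OL levels of 5.98 and 5.00 against 0.08 and 0.00 in OligNBL. Nuclear genes of the respiratory chain also leaned lower, with 13 of 51 (25.5%) at least 2 lower and 6 (11.8%) at least 2 higher, among them Ndufa3 (1.08 and 6.61) and Cox7c (1.69 and 5.73).

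OL cells were divided among themselves, and some of the differences rest on part of them. Several replication genes were present in OL runs 2 and 3 and not in run 1. Mcm5, a helicase subunit that licenses DNA replication, had run means of 0.24, 7.21 and 5.89 and was present in 0 of 8, 5 of 7 and 5 of 7 cells, and Cdc6, its loading factor, in 0, 4 and 4 cells. Both were at 0.00 in every OligNBL cell. Of 12 measured replication genes 5 (41.7%) were at least 2 lower in OligNBL and 0 higher, with a median difference of -1.32, which moved to -2.18 without OL run 1 and -0.47 without OL run 2. Pcna and Cdca7 had the opposite sign with differences under 2, at 1.79 and 2.06 in OligNBL and 0.09 and 0.42 in OL. Among OligNBL runs both were highest in run 2, at 5.57 and 5.36, with presence in 8 and 5 of its 8 cells.

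The same OL runs held other genes that run 1 lacked. Egfr, a receptor of dividing progenitors, had OL run means of 0.00, 4.22 and 3.12, and Bcas1, a marker of newly formed oligodendrocytes, 0.21, 6.27 and 6.86. Both were near 0 in OligNBL, at 0.06 and 0.07. Run 1 instead led for Mal (12.84, 3.77 and 3.05), Mbp (15.68, 11.84 and 9.45) and Trf (18.53, 11.38 and 13.71), and Evi2a and Grm3 were present in all 8 of its cells and in at most 1 cell of the other OL runs. Mbp, Trf, Cnp, Phgdh and Slc6a9 were high in all 3 OL runs, so these differences did not rest on a single run.

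OligNBL runs differed as well, for some of the leading genes too: Gm10275 was present in 0 of 8 cells of run 2, and Snrpe in 1 of those 8. Cd24a, a surface protein of neuroblasts, had run means of 3.01, 0.78, 2.37, 9.17, 6.13 and 0.55 from run 1 to run 6, and Rnd3 had 3.53, 1.15, 0.45, 9.29, 6.34 and 0.08, so the same runs, 4 and 5, were high for both. Dcx was highest in runs 1, 3 and 4 (9.0, 6.28 and 6.31) and at most 1.29 in the others. Pdgfra was present in 8 of 8 cells of run 2 and 4 of 7 of run 3, and in 1 of 7 cells of each of runs 4, 5 and 6. Cspg4 was highest in runs 1 and 3, at 9.4 and 7.89. By contrast Nfib, Plxna2 and Map1b were above 6 in every OligNBL run. Run numbers are names, and no order in time or place is known for them.

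RNA-binding, chaperone and ribosomal genes showed large differences both ways. Ddx5, an RNA helicase, ran from 3.74 through 9.47 to 20.19 in OligNBL cells and from 0.00 through 1.26 to 5.47 in OL cells, with levels of 9.49 ± 4.39 and 1.41 ± 1.61. Nono and Snrpe, parts of the splicing machinery, had levels of 6.71 and 6.62 in OligNBL and 0.40 and 0.41 in OL. Hnrnpk, another RNA-binding protein, had the reverse, at 2.87 ± 3.29 and 12.14 ± 4.09. Over 55 measured splicing and RNA-binding genes 12 (21.8%) were at least 2 higher and 9 (16.4%) at least 2 lower, with a median difference of 0.30 against 0.13 over all genes.

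Among 27 chaperone genes 6 (22.2%) were at least 2 higher and 5 (18.5%) at least 2 lower, with a median difference of -0.06. Over all genes the shares were 13.2% and 12.2%. The Hsp90 chaperones were low in OligNBL: Hsp90b1, of the endoplasmic reticulum, at 0.97 ± 1.77 and 9.07 ± 3.79, and Hsp90ab1, of the cytosol, at 0.16 ± 0.59 and 6.58 ± 4.16. Cct7, a subunit of the chaperonin that folds tubulin and actin, was higher, at 6.23 ± 6.48 and 0.82 ± 2.27. Dnajc7, a cochaperone, had levels of 7.14 ± 5.25 and 0.36 ± 0.80, and it overlaps Cnp on the opposite strand over 8912 bases, so reads from the shared stretch cannot be told apart without strand, though the genes differed in opposite directions.

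Ribosomal protein genes were at least 2 higher in 12 of 50 (24%) and lower in 4 (8.00%), with a median difference of 0.96, which was 0.60 without OL run 3, led by Rpl3 (6.16 and 0.27), Rpl12 (6.17 and 0.31) and Rps19 (6.85 and 1.38). These genes have many pseudogene copies, and Gm10275 (6.09 and 0.09), a leading gene of OligNBL, is annotated as a processed pseudogene, so reads may be misassigned among copies. Nme1, a nucleotide kinase, had levels of 6.46 and 0.16 and shares 11315 bases with the model Gm20390 (4.51 and 0.00). Of 40 chromatin regulators 9 (22.5%) were at least 2 higher and 7 (17.5%) at least 2 lower, with a median difference of 0.22. Smarca2, an ATPase of the BAF remodelling complex, led the higher ones (5.35 ± 3.45 and 0.50 ± 1.12). Brd3 and Kmt2a led the lower ones with the histone gene H3f3b, and their OL run means were 0.31, 6.76 and 5.10, and 0.57, 6.08 and 5.06, the same division of OL runs as for the replication genes.

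Short lists of signalling genes gave few values. Ifit1, which interferon induces, had a level of 3.13 in OligNBL and 0.43 in OL, and Stat2 did not differ by 2. Mfng, a Notch-modifying enzyme, was at 3.00 and 0.30, and Notch1 was low in both at 0.15 and 0.30. Of 4 immediate early genes, which respond to stimulation or to handling of cells, only Zfp36 differed by 2, at 0.12 and 2.17. Kcnc2 and Scn3a, subunits of potassium and sodium channels, were at 3.98 and 3.65 in OligNBL and 0.00 and 0.21 in OL.

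Markers of cell types other than those sorted were thinly covered. None of 18 listed microglial genes was measured, and of 24 astrocyte and stem cell genes 3 were (Fabp7, Prom1 and Atp1b2), of which 0 differed by 2. Pecam1, an endothelial gene, was high in both populations, at 8.11 ± 3.40 and 8.49 ± 2.87, and in all others (6.54 to 10.53), so its levels did not separate the populations. The 5 mature neuron genes gave 0 differences of 2, with Snap25 at 1.71 and 2.02 and Map2 at 1.24 and 0.10. Summed levels of the 9 mature oligodendrocyte markers were 0.00 to 8.30 (median 0.35) in OligNBL and 30.2 to 139.6 (median 96.7) in OL cells, and those of the 9 neuroblast markers 17.1 to 63.2 (median 28.9) and 0.00 to 22.4 (median 8.62). The part of other cell types in the differences was not tested beyond these values.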

How the data were processed

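Messenger RNA of single sorted cells was measured by SMART-Seq2, a full-length protocol, where a sample is 1 cell. The authors used kallisto, limma and GRCm38, per the submitters' processing notes (versions: not given in the sources used here). Deposited values are a normalized signal for 3422 genes: the 8 highest values were equal in all cells (relative tolerance 1e-06), as after quantile normalization. The choice of these genes is not stated in the labels or files, so shares over all genes describe this table only. Raw counts had been planned for as a possibility, and the log2 scale was used as the values were not counts.

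Levels are means of log2(signal + 1), which understate differences of low genes. A cell's lowest value counts as not detected. No p-value or standard error was computed, since a population is 1 sample. Intervals are exact Clopper-Pearson 95% intervals. Runs were made from the cell numbers in the titles alone, with a new run after a gap of over 20. Named genes were Tubb3, Nfib, Mbp and Trf, the 15 each way with the largest difference among genes with runs apart, up to 4 per gene list, the reporters and the tubulins; members of the described lists outside this rule (such as Dlx1, Dcx and Pdgfra) were named for their known roles after their values were seen. A few genes named by this rule are not reported here. The members and lists were chosen with earlier results of these data known. Genes were placed with GENCODE M21. No doublet caller was run, and levels use every cell. The steps were tested on simulated data. Alternatives were another pseudocount, run weighting, gene and cell filters, ranks, medians, left-out runs, shorter runs and other definitions of presence. Computation used numpy 2.4.6 and scipy 1.17.1 with pandas 2.3.3 in Python 3.11.15, and figures matplotlib 3.10.9.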

Additional observations from a re-analysis of the deposited data

How the results depend on the processing

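Of 227 named genes, 144 had a difference past 2, as did the medians of 6 of the 28 gene lists with at least 4 measured members, and none of these changed sign under an alternative that gave a value; sign was not followed for smaller differences. Of the 144 genes, 39 were below 2 with a pseudocount of 10, 30 with medians over cells in place of means, 10 when only cells of at least 1000 detected genes were kept, and 12, 9 and 6 without OL run 1, 2 or 3. Without OL run 1 Evi2a was at -0.36 and Tuba1a at 0.70. With within-cell ranks all 144 kept their sign, and without the OligNBL cells numbered under 100 none fell below 2. A pseudocount of 10 gave 4.88% of all genes at least 2 higher and 5.52% at least 2 lower, with median differences of -2.36 for myelin proteins, 0.73 for neuroblast factors, 1.34 for neuroblast cytoskeleton and surface, 0.45 for guidance and adhesion, 1.04 for tubulins, actins and motors, -2.99 for serine and glycine, 0.82 for glycolysis and 0.38 for ribosomal proteins. Keeping genes with a mean level of at least 1 gave -6.03 for myelin proteins, 3.29 for progenitor genes, 3.17 for neuroblast factors, 3.03 for neuroblast cytoskeleton and surface, 2.06 for guidance and 3.10 for glycolysis. Cells with at least 1000 genes detected gave 1.31 for ribosomal proteins. Medians over cells gave 0.22 for neuroblast factors, 1.52 for neuroblast cytoskeleton and surface, 0 for guidance, 1.16 for tubulins, actins and motors and 0 for ribosomal proteins. Runs of about 5 cells left 2.95% of genes higher and 3.33% lower with runs apart, since more runs must lie apart. The share of cells with a progenitor and a neuroblast gene was 37.5% in OligNBL with the 300 highest genes, and 97.5% in OligNBL and 27.3% in OL with any value above the lowest. Leaving out each run in turn gave 13.2% to 14.2% of genes at least 2 higher, 11.98% to 12.6% lower, 11.1% to 14.0% with runs apart higher and 7.74% to 13.8% lower, the highest of the last without OL run 1. The median difference then ran from -5.33 to -3.41 for myelin proteins, 0.60 to 1.11 for guidance and 0.60 to 1.17 for ribosomal proteins. Depth could not be examined, as the values do not hold it. No paired analysis was possible because the cells carry no number that links the populations.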
